A study of Mus musculus with 28 samples.

Results

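Resident macrophages are long-lived cells that settle in the wall of a vessel, renew locally in part, and clear dying cells, iron-laden haemoglobin and matrix fragments. They are usually told from newly arrived monocytes by sets of surface receptors and secreted proteins. Under the name of resident macrophage genes, 10 genes are described here in the mouse arteriovenous fistula (AVF): *Cd163*, *Lyve1*, *Folr2*, *Timd4*, *Mrc1*, *F13a1*, *Gas6*, *Pla2g2d*, *Cd209f* and *Cd209a*. They were taken by symbol, 10 of the 56980 genes in the bulk count table and 10 of the 32285 genes in the single-cell matrices. The list was chosen by their measured levels in contralateral veins against AVFs, in bulk and single-cell data, so the levels and fold changes against contralateral veins that follow are descriptions and carry no p. The name of the list is a label for the genes, and not every transcript counted here lay in a resident macrophage.

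The AVFs were made in male and female C57BL/6 mice that had all undergone subtotal nephrectomy beforehand, by joining the end of the external jugular vein to the side of the common carotid artery. The outflow vein was collected as an early (labelled day 3), mid (day 10) or late (day 21) AVF, and the native contralateral jugular veins (CL) of operated mice were the controls, so every group carried the kidney injury. Bulk RNA-seq covered 25 vessels (7 CL, 8 early, 5 mid and 5 late). Single-cell RNA-seq used 3 libraries (CL, early and late), each a pool of 10 vessels digested with enzymes and, per the study's methods, collected somewhat later than the bulk vessels of the same name. The ages of the mice were not given in the sources used here. With 1 pooled library per condition, the single-cell values have no replicate check, and the digestion sets which cells are seen.

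Several members are receptors that take up cargo or sense sugars. *Cd163* (ENSMUSG00000008845, chr6:124304656-124330527, plus strand, GRCm38) encodes the scavenger receptor for haemoglobin bound to haptoglobin. *Mrc1* (ENSMUSG00000026712, chr2:14229392-14332057, plus strand) encodes the macrophage mannose receptor. *Lyve1* (ENSMUSG00000030787, chr7:110850607-110863239, minus strand) encodes a hyaluronan receptor that is also a standard marker of lymphatic endothelium. *Folr2* (ENSMUSG00000032725, chr7:101839988-101857194, minus strand) encodes folate receptor beta. *Timd4* (ENSMUSG00000055546, chr11:46810800-46844332, plus strand) encodes a receptor for phosphatidylserine, the lipid that dying cells expose. *Cd209a* (ENSMUSG00000031494, chr8:3743397-3748984, minus strand) and *Cd209f* (ENSMUSG00000051906, chr8:4102787-4105835, minus strand) encode C-type lectins of the DC-SIGN family and lie in the same gene cluster. The remaining members are secreted or enzymatic. *Gas6* (ENSMUSG00000031451, chr8:13465374-13494490, minus strand) encodes the ligand that bridges phosphatidylserine to the receptors Axl and Mertk. *F13a1* (ENSMUSG00000039109, chr13:36867178-37050244, minus strand) encodes the A subunit of coagulation factor XIII, which cross-links fibrin and is made by platelets as well as macrophages. *Pla2g2d* (ENSMUSG00000041202, chr4:138775735-138782046, plus strand) encodes a secreted phospholipase A2.

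The promoters of 4 genes are shown. They are *Cd209f* and its neighbour *Cd209g* (ENSMUSG00000079168, chr8:4134098-4137707, plus strand), whose counts cannot be fully separated, *Cd209a*, which with *Cd209f* was lower in every AVF than in every vein, and *Mrc1*, whose bulk level differed little between groups. Each window is 300 bases from RefSeq on GRCm38.p6, printed 5′ to 3′ from 250 bases before the start site to 50 after it. Of the 10 members, 9 had an entry, and *Lyve1* had none. Capitals mark the letters TATAAA (the TATA box), TGACTCA (the AP-1 site) and GGAAGT (an ETS core of the PU.1 type), searched on both strands, and no matches overlapped in these windows. The windows lie at chr8:4105715-4106014 (*Cd209f*, minus strand), chr8:4134486-4134785 (*Cd209g*, plus strand), chr8:3748935-3749234 (*Cd209a*, minus strand) and chr2:14229164-14229463 (*Mrc1*, plus strand).
Cd209f: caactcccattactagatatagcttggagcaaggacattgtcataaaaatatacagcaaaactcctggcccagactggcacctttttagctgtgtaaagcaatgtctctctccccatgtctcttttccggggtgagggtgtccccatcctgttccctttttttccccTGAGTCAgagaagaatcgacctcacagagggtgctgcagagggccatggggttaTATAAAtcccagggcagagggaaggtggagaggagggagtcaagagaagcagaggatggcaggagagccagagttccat
Cd209g: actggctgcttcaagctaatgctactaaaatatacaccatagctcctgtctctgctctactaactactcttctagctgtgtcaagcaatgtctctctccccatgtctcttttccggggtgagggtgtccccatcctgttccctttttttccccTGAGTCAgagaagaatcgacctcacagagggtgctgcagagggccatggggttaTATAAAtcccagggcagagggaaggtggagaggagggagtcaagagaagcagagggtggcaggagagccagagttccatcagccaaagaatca
Cd209a: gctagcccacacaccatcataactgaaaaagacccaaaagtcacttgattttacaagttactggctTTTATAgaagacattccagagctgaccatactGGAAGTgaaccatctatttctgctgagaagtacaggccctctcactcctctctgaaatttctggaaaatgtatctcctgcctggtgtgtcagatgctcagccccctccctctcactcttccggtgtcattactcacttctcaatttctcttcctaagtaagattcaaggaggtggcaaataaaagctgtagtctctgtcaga
Mrc1: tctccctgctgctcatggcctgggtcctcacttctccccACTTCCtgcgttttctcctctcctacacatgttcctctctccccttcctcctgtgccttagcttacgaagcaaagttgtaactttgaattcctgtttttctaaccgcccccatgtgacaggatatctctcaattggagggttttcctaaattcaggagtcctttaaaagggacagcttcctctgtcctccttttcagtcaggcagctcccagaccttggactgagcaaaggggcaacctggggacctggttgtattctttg
The *Cd209f* and *Cd209g* windows shared an identical run of 180 bases, and at a shift of 14 bases 238 of 286 letters were the same (83.2%). The run holds the TATAAA that begins 29 bases before the *Cd209f* start and, on the other strand, a TGACTCA. Against *Mrc1* and the other CD209 genes the *Cd209f* window was 28.8% to 36.2% identical. The 9 members had 11 windows, since *Folr2* and *F13a1* have more than 1 start site. TATAAA stood in 2 of the 11 member windows and in 13.6% of 32851 promoters of the same length. TGACTCA stood in 2 of 11 and in 5.2% of promoters, and GGAAGT in 5 of 11 and in 23.8%. The match is of letters, and no binding was measured. In the transcripts, 467 of 2347 windows of 100 bases in *Cd209f* (19.9%) were also found in *Cd209g*, so the counts of these 2 genes are uncertain wherever reads were split between them. *Cd209a* shared no such window with another CD209 gene.

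Bulk libraries held 20254173 to 67457501 counts (median 27994164), and levels are given as TMM-scaled CPM, that is, reads relative to the size of the library. All 10 members passed the filter on low counts and were among 12673 genes tested. Contralateral vein 28 stood apart, with the lowest median Spearman correlation to its group (0.587, against up to 0.741), a summed B cell marker level of 5175 CPM against 90.2 to 699 in the other veins, and platelet markers at 0.125 CPM with 5 of 6 at 0. Among early AVFs the lowest such correlation was that of early AVF 6 (0.801, against up to 0.935). Early AVF 7 stood apart by other measures. It had the lowest summed mono/macro marker level of its group (3556 CPM, against 3882 to 12903) and the lowest fibroblast marker level (3618 CPM, against 5777 to 40006). The values that moved most without vein 28 or early AVF 7 are also given without that library. In bulk tissue, fewer cells of a type and less RNA per cell cannot be told apart.

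*Cd209f* was lower in every AVF than in every vein at all 3 stages. Its level was 104, 201, 516, 320.4, 179.6, 513 and 240.1 CPM in the 7 CL. In early AVFs it ran from 4.77 to 28.0 CPM with a median of 15.2 (n = 8). It was 3.38, 7.00, 13.5, 9.21 and 5.77 CPM in mid AVFs and 19.4, 19.9, 20.8, 19.3 and 16.4 CPM in late AVFs. The late AVFs were its most uniform group (SD over mean 0.0855). The log2 fold changes were -4.47 ± 0.43 (SE) early, -5.25 ± 0.55 mid and -3.95 ± 0.52 late. All 5 late AVFs lay above all 5 mid AVFs, the sole member so ordered, where 1.06% of all genes were, but the difference was not called (log2 fold change 1.30 ± 0.48, edgeR quasi-likelihood test, adjusted p = 1).

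*Cd209a* was also lower in every AVF than in every vein, with a partial return. It was 61.0, 449.6, 195, 99.8, 141, 137 and 159 CPM in CL. The early range was 0.0271 to 37.5 CPM (median 11.7), the mid values were 27.8, 27.0, 31.8, 52.7 and 31.4 CPM, and the late values were 40.3, 35.3, 50.2, 40.4 and 46.8 CPM. The highest vein was vein 28, and without it the vein range was 61.0 to 195 CPM, still above every AVF. Log2 fold changes against CL were -3.49 ± 0.62 early, -2.38 ± 0.71 mid and -2.06 ± 0.70 late. The increase from early to late did not pass the test (1.43 ± 0.62, edgeR adjusted p = 0.224).

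*Pla2g2d* was near 0 in most AVFs. Levels in CL were 21.6, 202, 118, 18.4, 32.8, 42.3 and 33.5 CPM. In early AVFs they were 5.20, 1.32, 0.0954, 2.25, 0, 0, 32.7 and 0.197 CPM. Early AVF 7 alone, at 32.7 CPM, lay within the vein range, and the other 7 lay below it. Mid values (0.273 to 1.32 CPM) and late values (1.31 to 8.81 CPM) were all below the lowest vein. The log2 fold changes of -3.68 ± 1.15, -6.43 ± 1.62 and -4.17 ± 1.44 had the widest errors of the list after *Timd4*. Without early AVF 7 the early value was -5.69 ± 1.15, and without vein 28 it was -3.07 ± 1.15.

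*Timd4* had the widest spread of the members within CL, early and late AVFs (SD over mean 1.16, 2.47 and 1.01), though not within mid AVFs (0.267). It was 0.870, 0, 42.4, 2.13, 6.34, 56.6 and 32.0 CPM in CL and so spanned the whole range of the data within the veins alone. Early AVFs were at 0 to 1.59 CPM except for early AVF 7 at 44.01 CPM, mid AVFs were at 0.871 to 1.60 CPM, and late AVFs were at 1.23 to 1.84 CPM except for late AVF 23 at 7.61 CPM. A count of 0 in a single library allows up to 3 counts by sampling alone. The groups overlapped at every stage, and the log2 fold changes were -1.69 ± 1.28, -4.06 ± 1.70 and -2.88 ± 1.60. Without early AVF 7 the early value was -4.64 ± 1.28, with females alone it was 0.53 ± 1.98, and without late AVF 23 the late value was -3.81 ± 1.86. The 2 AVFs with high *Timd4* were also the highest of their groups in *Pla2g2d*. In early AVF 7 the summed B cell markers were 356 CPM, against 33.4 to 194 in the other early AVFs, and *Cd209b*, a lectin of marginal zone and lymph node macrophages, was 286 CPM against a group median of 2.70. In late AVF 23 the T and NK marker sum was 152 CPM, against 60.2 to 93.6 in the other late AVFs, and the lymphatic sum was 636 CPM, against 476 to 566, while its B cell sum of 309 CPM lay within the others' 127 to 350.5. The part of these markers in the *Timd4* and *Pla2g2d* values was not tested.

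**Figure D1:**
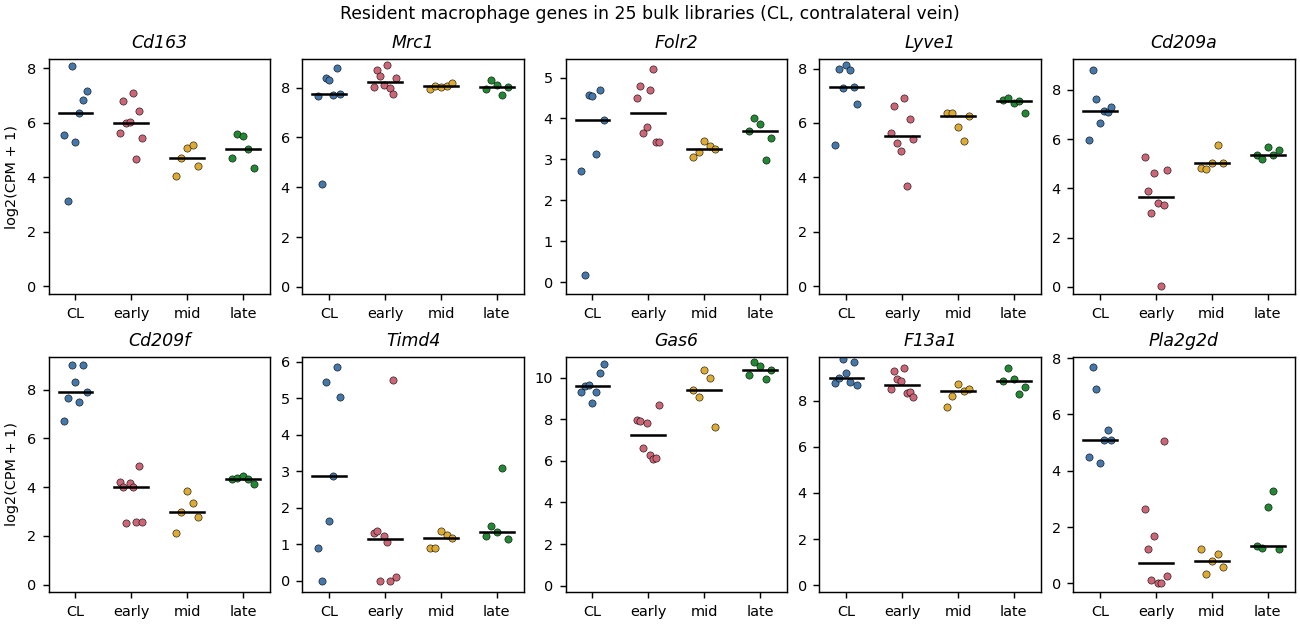
Level of each of the 10 genes in every bulk library, as log2(CPM + 1) on the vertical axis, by group (contralateral, early, mid, late). Points are single vessels and bars are group medians. *Cd209f* and *Cd209a* show no overlap between veins and AVFs, *Mrc1* and *Folr2* overlap throughout, and *Timd4* shows a single high early AVF at 44.01 CPM.

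*Gas6* followed another course. It was 625.4, 776, 811, 435, 632, 1187 and 1641 CPM in CL and 248, 242, 97.9, 228, 77.6, 67.1, 69.0 and 407 CPM in early AVFs, so all 8 early AVFs lay below all veins. Mid AVFs held 682, 534, 1328, 1004 and 195 CPM, a range that reached from below the lowest vein to within the upper veins. Late AVFs held 1129.9, 1753, 1495, 973 and 1327 CPM, all above every early AVF. *Gas6* rose from early to late (log2 fold change 2.89 ± 0.43, edgeR adjusted p = 0.000542) and was the single member called higher, at a rate of 0.726% for all genes. AVF levels took part in the choice of the list, so p values of members between AVF stages are not fully independent of that choice. The separation of late from early libraries was shared by 7.16% of all genes. With females alone it was 3.00 ± 0.74 and did not pass (edgeR adjusted p = 0.151). From early to mid it gained 2.06 ± 0.43 on the log2 scale (edgeR adjusted p = 0.0131), which missed the threshold of 0.01, a contrast in which 0.00789% of genes (1 gene) were called higher and no member was. Against CL the log2 fold changes were -2.28 ± 0.40 early, -0.22 ± 0.45 mid and 0.61 ± 0.44 late. Fibroblast marker sums ran from 17013 to 43135 CPM in CL, 3618 to 40006 early, 37772 to 58775 mid and 33530.2 to 70572 late, and their part in the *Gas6* result was not tested.

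*Lyve1* was lower early and closer to the veins later. It was 35.4, 253, 154, 278, 243, 158 and 104 CPM in CL and 49.1, 96.6, 37.6, 30.4, 120.1, 11.7, 70.2 and 41.8 CPM in early AVFs, with overlap. The mid range was 39.3 to 82.5 CPM and the late range 80.7 to 121 CPM. Log2 fold changes against CL were -1.61 ± 0.39, -1.38 ± 0.46 and -0.72 ± 0.44. Summed lymphatic endothelial markers were 66.2 to 346 CPM in CL, 119 to 378 early, 217 to 505 mid and 476 to 636 late. All late AVFs therefore exceeded all veins in this sum, but not in each marker. *Prox1* and *Mmrn1* overlapped between veins and late AVFs, whereas *Ccl21a* did not. The part of these markers in the *Lyve1* level was not tested.

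In *Cd163*, *Folr2*, *Mrc1* and *F13a1* the veins and AVFs overlapped at all stages. *Cd163* was 46.5, 7.75, 273, 38.5, 81.7, 113 and 145 CPM in CL, 24.8 to 137 CPM early, 15.7 to 35.545 CPM mid and 19.4 to 47.7 CPM late. Vein 28 was the lowest vein, and the other 6 (38.5 to 273 CPM) all lay above all mid AVFs. The log2 fold changes of *Cd163* were -0.48 ± 0.47, -1.96 ± 0.57 and -1.57 ± 0.56, and without vein 31, the highest, the early value was 0.02 ± 0.45. *F13a1* ran from 418 to 901 CPM in CL (median 508) and from 288 to 685 CPM early, 211 to 420.0 CPM mid and 317 to 691 CPM late, with 4 of 8 early, 4 of 5 mid and 2 of 5 late AVFs below the lowest vein. Its log2 fold changes were -0.40 ± 0.23, -0.85 ± 0.27 and -0.32 ± 0.26. Summed platelet markers, which matter for a gene that platelets also carry, were 0.125 to 193 CPM in CL and 106 to 1446 CPM early, and their part was not tested. *Mrc1* medians were 212, 303, 267 and 258 CPM in CL, early, mid and late, and the mid AVFs agreed closely (245, 269, 263, 267 and 288 CPM). The lowest *Mrc1* value was vein 28 at 16.4 CPM, and the other veins held 199.8 to 446 CPM. *Mrc1* log2 fold changes were 0.39 ± 0.34, 0.11 ± 0.39 and 0.06 ± 0.39, and without vein 28 the mid and late values were -0.08 ± 0.22 and -0.12 ± 0.22. *Folr2* medians were 14.6, 17.1, 8.58 and 11.9 CPM, with vein 28 again lowest at 0.125 CPM and log2 fold changes of 0.45 ± 0.58, -0.70 ± 0.66 and -0.26 ± 0.66.

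**Figure D2:**
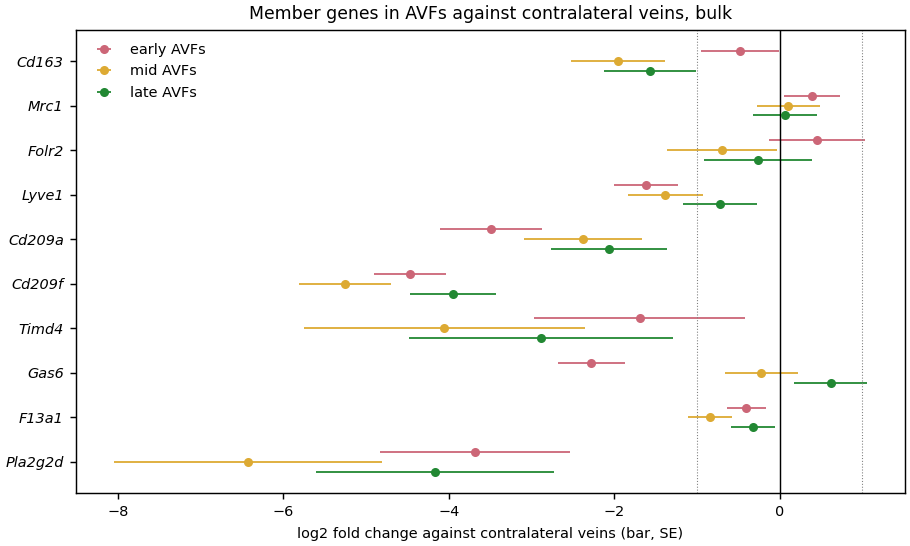
Log2 fold change of each gene in early, mid and late AVFs against contralateral veins (edgeR, 7 veins against 8, 5 and 5 AVFs). Points are estimates, bars are standard errors and dotted lines mark log2 fold changes of 1 and -1. *Cd209f* lies below -3.9 at all stages, *Gas6* goes from -2.28 early to 0.61 late, and *Mrc1* lies between 0.06 and 0.39.

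Counted over the list, 4 members were called lower in early AVFs (*Lyve1*, *Gas6*, *Cd209f*, *Cd209a*), 2 in mid AVFs (*Pla2g2d*, *Cd209f*) and 1 in late AVFs (*Cd209f*). The rates for all genes were 6.45%, 3.31% and 2.85%. A call needed an adjusted p under 0.01 and a log2 fold change of at least 1 in size. No member was called higher, where the rates for all genes were 6.17%, 2.74% and 2.49%. Members with every AVF below every vein were 3 early (*Gas6*, *Cd209f*, *Cd209a*), 3 mid and 3 late (*Pla2g2d*, *Cd209f*, *Cd209a* in both), against 2.34%, 4.69% and 4.25% of all genes. The median log2 fold change of the members was -1.65 early, -1.67 mid and -1.15 late, and that of all genes was -0.01, -0.10 and -0.09. Over 34 settings *Cd209f* was called in 34 early, 34 mid and 33 late, *Gas6* and *Cd209a* early in 33 each and *Lyve1* early in 30, but *Pla2g2d* mid in only 19. These contrasts were those in view when the list was made, so nothing is read from the counts. The early, mid and late comparisons share the same 7 veins.

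Between AVF stages only the *Gas6* rise from early to late passed the test. From early to mid the log2 fold change of *Cd163* was -1.48 ± 0.54 (edgeR adjusted p = 0.155) and that of *Pla2g2d* was -2.74 ± 1.33 (edgeR adjusted p = 0.388). *Lyve1* gained 0.89 ± 0.42 from early to late (edgeR adjusted p = 0.281), and *Cd209f* gained 0.52 ± 0.42 (edgeR adjusted p = 0.722). From mid to late no member was called, with adjusted p = 1 for all 10 (edgeR). An effect of sex on the early change was not detectable for any member: the lowest adjusted p of the interaction was 0.486 (*Timd4*, edgeR), with 57 genes past 0.05 in the whole table. Only 2 of the 7 veins came from males.

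Per kilobase of transcript, the order of levels in CL was *Gas6* (median 304 CPM per kb), *Cd209f* (121), *Cd209a* (89.4), *F13a1* (75.4), *Lyve1* (54.1), *Mrc1* (33.2), *Cd163* (15.0), *Pla2g2d* (14.9), *Folr2* (9.41) and *Timd4* (2.92). The ranges of all neighbours in this order overlapped. In late AVFs the order on the same scale was *Gas6* (521), *F13a1* (70.0), *Mrc1* (40.5), *Lyve1* (37.8), *Cd209a* (25.5), *Cd209f* (9.76), *Folr2* (7.71), *Cd163* (5.85), *Timd4* (0.705) and *Pla2g2d* (0.674). There *Gas6* was apart from *F13a1* (lowest 382 against highest 103), and *Cd209a* was apart from *Cd209f* (lowest 22.3 against highest 10.5), whereas *Cd209f* overlapped *Folr2*. *Cd209f* thus moved from above *F13a1*, *Lyve1* and *Mrc1* in the medians of the veins to below them in the late AVFs.

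The gene lists in this and the following paragraphs were chosen with earlier results of these data known. The p values of their genes are therefore not independent of that choice. Of 14 genes that most macrophages share, 13 rose in early AVFs and none fell (median log2 fold change 2.60). Among them were *Tyrobp* (3.40 ± 0.37, edgeR adjusted p = 1.55e-07), an adaptor of activating receptors, *Ms4a7* (3.40 ± 0.61, edgeR adjusted p = 0.000169) and *Fcgr1* (3.50 ± 0.81, edgeR adjusted p = 0.00229), an Fc receptor. In mid AVFs 2 of the 14 rose, *Lyz2* (1.73 ± 0.31, edgeR adjusted p = 0.000324), the lysozyme of myeloid cells, and *Tyrobp* (1.48 ± 0.37, edgeR adjusted p = 0.00764), and in late AVFs *Lyz2* alone did (1.47 ± 0.30, edgeR adjusted p = 0.00197). Of 11 tested genes of recruited monocytes and inflammatory macrophages, 9 rose early, 5 mid and 3 late, and none fell. Early examples were *Chil3* (7.999 ± 1.34, edgeR adjusted p = 7.93e-05), *Arg1* (7.39 ± 1.41, edgeR adjusted p = 0.00036), which degrades arginine, and *Spp1* (7.72 ± 0.95, edgeR adjusted p = 9.84e-07), which encodes osteopontin. In late AVFs *Mmp12*, the macrophage elastase, was still 6.399 ± 1.03 higher on the log2 scale (edgeR adjusted p = 0.000156).

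The members were therefore also expressed per 1000 counts of the 14 pan-macrophage genes in the same library. This sum is not confined to macrophages, since it includes *Lyz2*, a gene of myeloid cells. Summed neutrophil markers were 5.31 to 272 CPM in CL and 314 to 4544 CPM in early AVFs, and their part in the sum was not tested. On that scale *F13a1* went from 97.2 to 198 in CL to 7.50 to 23.3 in early, 12.5 to 32.9 in mid and 33.8 to 46.1 in late AVFs, with no overlap at any stage. *Lyve1* went from 16.1 to 52.5 in CL to 0.273 to 4.88 early, 2.60 to 6.77 mid and 7.12 to 12.6 late. *Mrc1*, at a median of 53.1 in CL, 11.9 early, 20.6 mid and 20.4 late, overlapped because vein 28 was at 3.13. *Gas6* went from 79.9 to 412 in CL to 1.57 to 23.1 early, and its late range of 80.9 to 157 overlapped that of the veins. Most *Gas6* UMIs of the CL pool lay in fibroblasts, as given below, so its ratio is not a level in macrophages. *Cd209f* medians were 58.9, 0.417, 0.575 and 1.57. Members without overlap numbered 6 early, 5 mid and 5 late, against 17.9%, 17.7% and 11.7% of all genes put over the same sum, since the sum itself was higher in AVFs. With *Csf1r*, the receptor that macrophages need to survive, as the sole reference (medians 276, 484, 477 and 581 CPM), they numbered 5, 5 and 4, against 3.66%, 9.18% and 4.48% of all genes on that scale.

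Other genes known from resident macrophages did not move as a block. Of 21 listed, 19 were tested. In early AVFs 2 fell and 2 rose. *Retnla*, a secreted protein of alternatively activated macrophages, fell most (log2 fold change -6.13 ± 0.51, edgeR adjusted p = 2.32e-09), from a median of 2197 CPM in CL to 36.8 CPM, and was still lower mid (-4.30 ± 0.58, edgeR adjusted p = 9.83e-06) and late (-2.69 ± 0.53, edgeR adjusted p = 0.0012). The galactose lectin *Mgl2* fell early (-3.80 ± 0.68, edgeR adjusted p = 0.000156). *Siglec1*, the sialic acid receptor sialoadhesin, rose early (2.94 ± 0.62, edgeR adjusted p = 0.00103), as did *Ninj1* (1.63 ± 0.36, edgeR adjusted p = 0.00157), which takes part in membrane rupture. From early to late *Retnla* (3.44 ± 0.47, edgeR adjusted p = 0.000252) and *Mgl2* (3.39 ± 0.69, edgeR adjusted p = 0.00403) both rose. The median of the 19 was 0.53 early, -0.38 mid and -0.30 late on the log2 scale.

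Of 5 other CD209 lectins, 3 were tested, of which *Cd209d* (ENSMUSG00000031495, chr8:3871824-3878555, minus strand) fell at all 3 stages and *Cd209g*, whose reads may be shared with *Cd209f*, fell early and mid. *Cd209d* medians were 167 CPM in CL, 1.34 early, 2.03 mid and 2.66 late, with log2 fold changes of -5.78 ± 0.83 (edgeR adjusted p = 9.65e-06), -6.04 ± 1.04 (edgeR adjusted p = 0.000241) and -5.56 ± 1.01 (edgeR adjusted p = 0.000558). The values of *Cd209g* were -4.75 ± 0.85 early (edgeR adjusted p = 0.000172) and -5.01 ± 1.06 mid (edgeR adjusted p = 0.00197). Among genes that recognise phosphatidylserine, 6 of 9 were tested. The TAM ligand *Pros1*, related to *Gas6*, fell early (-1.72 ± 0.31, edgeR adjusted p = 0.000187), as did *Mfge8* (-1.23 ± 0.20, edgeR adjusted p = 3.82e-05), a bridging protein. From early to late *Mfge8* (1.05 ± 0.21, edgeR adjusted p = 0.00376) and the Gas6 receptor *Axl* (1.02 ± 0.20, edgeR adjusted p = 0.00353) rose. Among 9 growth factors and regulators of macrophages, *Irf8* rose early (2.67 ± 0.66, edgeR adjusted p = 0.00402) and *Gata6*, a factor of cavity macrophages, fell early (-1.55 ± 0.32, edgeR adjusted p = 0.000872). These are levels of the whole vessel, not of macrophages. Summed smooth muscle and pericyte markers ran from 9662 to 20953 CPM in CL and from 1082 to 2667 CPM in early AVFs. Their part in the *Mfge8* and *Gata6* falls was not tested.

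The members did not share a single profile. The correlation (Pearson, log2(CPM + 1), 25 libraries that share group and tissue makeup) of each with the mean standardised profile of the other 9 was highest for *Cd209f* (0.790), *Timd4* (0.704) and *F13a1* (0.638) and lowest for *Gas6* (0.277), *Folr2* (0.128) and *Mrc1* (0.0244). *Folr2* and *Mrc1* were most like each other (0.846), and among the 18 AVFs alone the value was 0.510. *Timd4* and *Pla2g2d* correlated at 0.625 over all libraries and at 0.885 in AVFs, where early AVF 7 was high in both. The genes outside the list most like its mean profile were *Cd209g* (0.833), *Dpep1* (0.820), *Scg3* (0.815), *Xpnpep2* (0.806), *Aldh2* (0.796), *Casp12* (0.795), *Cd209d* (0.791) and *Rbpms2* (0.781). *Dpep1*, a membrane dipeptidase, had medians of 227, 41.3, 53.3 and 77.0 CPM in CL, early, mid and late, and *Aldh2*, the mitochondrial aldehyde dehydrogenase, of 232, 70.8, 105 and 137 CPM.

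The single-cell libraries placed these transcripts in cell types. After filtering, 6319 cells of the CL pool, 4753 of the early pool and 5821 of the late pool were kept, with median UMI counts of 2751, 8951 and 15425. The kept cells of any 2 libraries shared 5 or 6 barcodes. The mono/macro class held 735, 2011 and 1569 cells with median UMI counts of 2762, 13000 and 13503. In CL 664 of the 735 cells formed cluster 9 (led by *F13a1*, *Mrc1*, *Mgl2* and the complement genes), whereas 1998 early and 1559 late cells were in cluster 0 (led by *Lyz2*, *Il1b* and *Cd14*). Neither the members nor the marker genes were used to make the clusters. The libraries were clustered together with no step to align them, and median UMI counts were 2487 in cluster 9 and 13157.5 in cluster 0. Differences of library, digestion and depth therefore cannot be told apart from those between vein and AVF in this split. The class carried its markers in CL, where it held 89.0% of *Csf1r* and 89.8% of *C1qa* UMIs.

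Mono/macros of both AVF pools carried less of all 10 members, as CPM of their summed UMIs, than those of the CL pool. Intervals in brackets are exact 95% Poisson intervals that cover counting error only. *Cd163* was at 949 CPM [916 to 982] in CL, 53.7 [51.1 to 56.5] early and 28.7 [26.6 to 31.0] late. *Timd4* was at 122 CPM [111 to 134], 0.454 [0.242 to 0.776] and 1.59 [1.12 to 2.19]. *Pla2g2d* was at 236, 1.05 and 2.24 CPM, *Cd209f* at 652, 30.3 and 11.2 CPM, and *Cd209a* at 262, 11.8 and 26.3 CPM. As ratios, early mono/macros were 269-fold lower in *Timd4* [156 to 509], 225-fold lower in *Pla2g2d* [156 to 336], 22.3-fold lower in *Cd209a* [19.6 to 25.3] and 21.6-fold lower in *Cd209f* [19.9 to 23.3]. These folds depend on the mitochondrial limit: at 20% in place of 10% the early over CL ratio was 0.0132 in place of 0.00372 for *Timd4*, 0.00757 in place of 0.00444 for *Pla2g2d* and 0.0908 in place of 0.0449 for *Cd209a*, in a mono/macro class that then also took in cells of other clusters. *Lyve1* (478, 25.6 and 37.3 CPM) was 18.6-fold lower early [17.1 to 20.4] and 12.8-fold lower late [11.8 to 13.9].

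*Mrc1*, *F13a1*, *Gas6* and *Folr2* had the smaller differences, whereas *Cd163*, at a similar level in CL, was 17.7-fold lower early and 33.0-fold lower late. *Mrc1* was at 2632 CPM in CL, 668 early and 775 late, 3.94-fold [3.84 to 4.04] and 3.40-fold [3.31 to 3.48] lower. *F13a1* (2129, 431 and 371 CPM) was 4.94-fold and 5.75-fold lower, *Gas6* (904, 176 and 178 CPM) 5.13-fold and 5.08-fold lower, and *Folr2* (773, 159 and 149.5 CPM) 4.86-fold and 5.17-fold lower. Between the AVF pools, the late over early ratio in mono/macros was 0.371 for *Cd209f* and 0.535 for *Cd163*, but 2.24 for *Cd209a*, 1.45 for *Lyve1* and 1.01 [0.970 to 1.05] for *Gas6*, whereas *Gas6* was higher in late than in early AVFs in bulk. For *Cd209f* the bulk estimate from early to late was an increase, which was not called. For scale, genes were taken that passed a minimum of 20 UMIs in the pools compared. The median ratio over 12473 such genes was 0.759 early, with 44.7% of intervals below 1. Over 12325 such genes it was 0.743 late, with 46.3% below 1. *Csf1r* ratios were 0.514 and 0.471, and those of *Lyz2* were 2.76 and 1.45. Within the CL pool itself, *Cd163* was at 1063 CPM in cluster 9 and 522 CPM in cluster 0, and *Mrc1* at 2879 and 1711 CPM, so the 71 vein cells of the AVF cluster were intermediate for *Cd163* and *Mrc1*. Those 71 cells were also deeper, with a median of 11287 UMIs against 2427 in CL cluster 9.

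**Figure D3:**
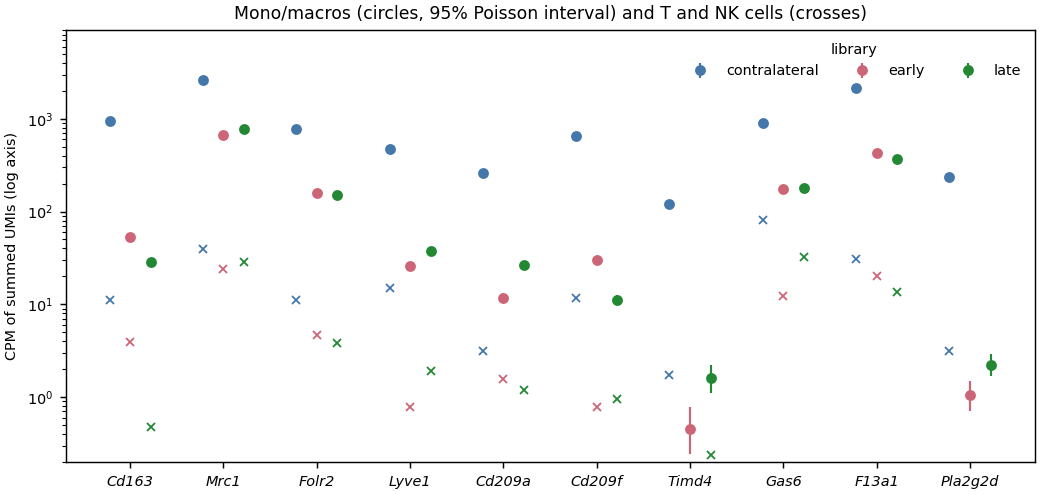
Members in mono/macros of the 3 single-cell pools, as CPM of UMIs on a log axis, with exact 95% Poisson intervals. Crosses give the same value in T and NK cells of that pool as a background level, and values of 0 are not drawn. All 10 genes are lower in both AVF pools than in the contralateral pool, from about 4-fold for *Mrc1* (3.94) to 269-fold for *Timd4*, whose ratio rose from 0.00372 to 0.0132 at a mitochondrial limit of 20%.

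The share of mono/macros with at least 1 UMI was compared after each cell was thinned to 1000 UMIs, which left out 128 CL, 12 early and 6 late cells. *Mrc1* was detected in 78.6%, 35.4% and 43.9% of CL, early and late mono/macros, *F13a1* in 71.0%, 25.9% and 23.9%, and *Gas6* in 57.0%, 14.1% and 15.1%. *Cd163* was detected in 46.3%, 2.85% and 2.56% (57.0% of CL cells before thinning), and *Folr2* in 35.6%, 11.2% and 10.7%. *Cd209f* was found in 29.7%, 1.15% and 0.576%, and *Timd4* in 9.23%, 0.100% and 0.320%. T and NK cells, which should lack these genes, had *Cd163* in 1.44%, 0.617% and 0.179% and *Mrc1* in 4.15%, 1.85% and 2.50%. *Gas6* had the highest such background, at 7.40%, 0.617% and 3.40%. Neither *Cd209f* nor *Timd4* was found in any of 162 early T and NK cells, which allows a share of up to 1.85%, so the early mono/macro shares of *Cd209f* and *Timd4* cannot be told from background at this number of cells. With counts in place of shares, *Cd163* in T and NK cells was at 11.1, 3.89 and 0.478 CPM, below its level in the mono/macros of the same pool. The median UMI counts of the T and NK cells were 3573.5, 5620.5 and 6449 before thinning.

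Counted together, a thinned mono/macro of the CL pool carried 3.85 of the 10 members on average, against 0.929 early and 1.02 late, and 0.199, 0.0494 and 0.0698 in T and NK cells. Mono/macros with none of the 10 made up 8.24% of CL, 46.6% of early and 42.3% of late cells. Those with 5 or more made up 42.0%, 1.201% and 0.896%. Without thinning the means were 5.21, 2.46 and 2.65 at the unequal depths above. The members were often detected in the same cells. Among thinned mono/macros with *Lyve1* (165, 30 and 46 cells), *Folr2* was detected in 54.5%, 53.3% and 52.2%, and among those without *Lyve1* in 28.5%, 10.6% and 9.43%. *F13a1* was detected in 87.3%, 86.7% and 73.9% of the former and 64.9%, 24.99% and 22.3% of the latter. For *Cd163* the shares in the late pool were 8.70% of cells with *Lyve1* and 2.37% of those without.

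Subclusters of the mono/macros, again made without the members, showed where the transcripts remained. Subcluster 7 (279 CL cells, 38.0% of the class there) held the highest levels, with *Mrc1* at 3533 CPM, *F13a1* 2951, *Cd163* 1328, *Folr2* 1111, *Cd209f* 838 and *Timd4* 174, and the monocyte receptor *Ccr2* at 2.54. Subcluster 5 (383 CL cells, median 1376 UMIs, led by haemoglobin genes) held *Mrc1* at 1519, *Cd163* at 538 and *Ccr2* at 353. In the early pool the highest levels of 7 members were in subcluster 4 (383 cells, 19.0%, led by *Saa3*, *Ccl8* and *Spp1*), with *Mrc1* at 1452, *F13a1* 969, *Folr2* 494, *Gas6* 492, *Cd163* 179, *Cd209f* 130.4 and *Lyve1* 116, but *Timd4* at 2.14 and *Pla2g2d* at 3.03. In the late pool subcluster 3 (417 cells, 26.6%, led by heat shock genes such as *Hspb1* and *Dnajb1*) held *Mrc1* at 1421, *F13a1* 825, *Gas6* 371, *Folr2* 349, *Lyve1* 113, *Cd163* 73.0 and *Cd209f* 30.1.

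At the other end, subcluster 0 (553 early and 286 late cells, led by *Plac8* and the monocyte antigen *Ly6c2*) had *Cd163* at 2.83 and 3.63 CPM and *Folr2* at 13.8 and 7.78, but *Cd209a* at 35.5 and 104, the highest *Cd209a* of the AVF subclusters named here. Subcluster 6 (182 and 119 cells, led by *Arg1*, *Spp1* and *Mmp12*) had no *Cd163* UMI in either pool, which allows up to 0.807 CPM early and 1.38 CPM late, and *Mrc1* at 137 and 146 CPM. Within AVFs, *Mrc1* was therefore present in all subclusters given here, whereas *Cd163* spanned from 0 to 179 CPM.

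**Figure D4:**
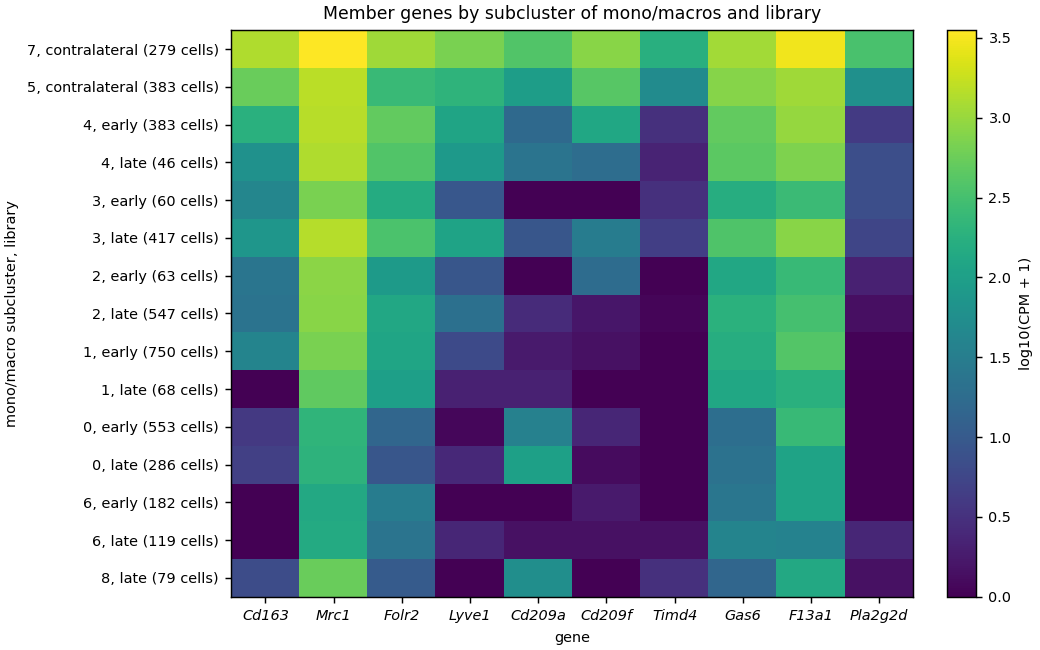
Heat map of the 10 genes over mono/macro subclusters and pools, as log10(CPM + 1), for subclusters with at least 20 cells in a pool. Subcluster 7 of the contralateral pool is highest for *Cd163* (1328 CPM) and *Mrc1* (3533 CPM), and subcluster 6 is listed at 0 for *Cd163*.

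Several members also had UMIs in other classes. In CL the mono/macro class held 71.4% to 93.3% of the UMIs of every member except *Gas6*, of which it held 8.32% and fibroblasts 83.8%. Fibroblast *Gas6* was at 2388 CPM in CL, 513 early and 885 late, a late over early ratio of 1.73. Fibroblasts held 42.7% of *Gas6* UMIs in the early pool and 80.2% in the late pool. The fibroblasts too were in different clusters: cluster 2 held most of them in CL (*Gas6* 2785 CPM), and cluster 1, with *Gas6* at 339, 510.1 and 879 CPM in the 3 pools, held most of those of the AVFs. These clusters also differed in depth, with median UMI counts of 3957 in cluster 2 and 24826.5 in cluster 1.

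For *Lyve1*, the cells of the endothelial class held 20.02% of UMIs in CL, 11.4% early and 48.0% late. Its level there was 153 CPM in CL, 153.6 early and 1916 late, a late over CL ratio of 12.5 [11.2 to 14.0]. Of these UMIs, 63.9%, 92.5% and 99.2% lay in cells with at least 2 lymphatic markers, which numbered 126 of 816, 5 of 76 and 43 of 89, so the class mixes lymphatic with blood endothelial cells. In CL mono/macros the lymphatic receptor gene *Flt4* had no UMI, which allows up to 0.880 CPM.

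*Cd209a* and *Timd4* were also found in cluster 12 (44, 151 and 167 cells), an unnamed cluster led by *Il1b*, *Ccr7*, *Ccl17*, *Ccl22* and MHC class II genes. It held 14.9%, 55.7% and 50.9% of *Cd209a* UMIs, at 539, 179.7 and 192 CPM, and 0.662%, 66.0% and 60.7% of *Timd4* UMIs, which were 3, 31 and 71 UMIs. *Timd4* in that cluster was at 9.09, 12.5 and 19.8 CPM. *F13a1* in platelets was at 429, 437 and 350.5 CPM, close to its level in AVF mono/macros and below its level in vein mono/macros.

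**Figure D5:**
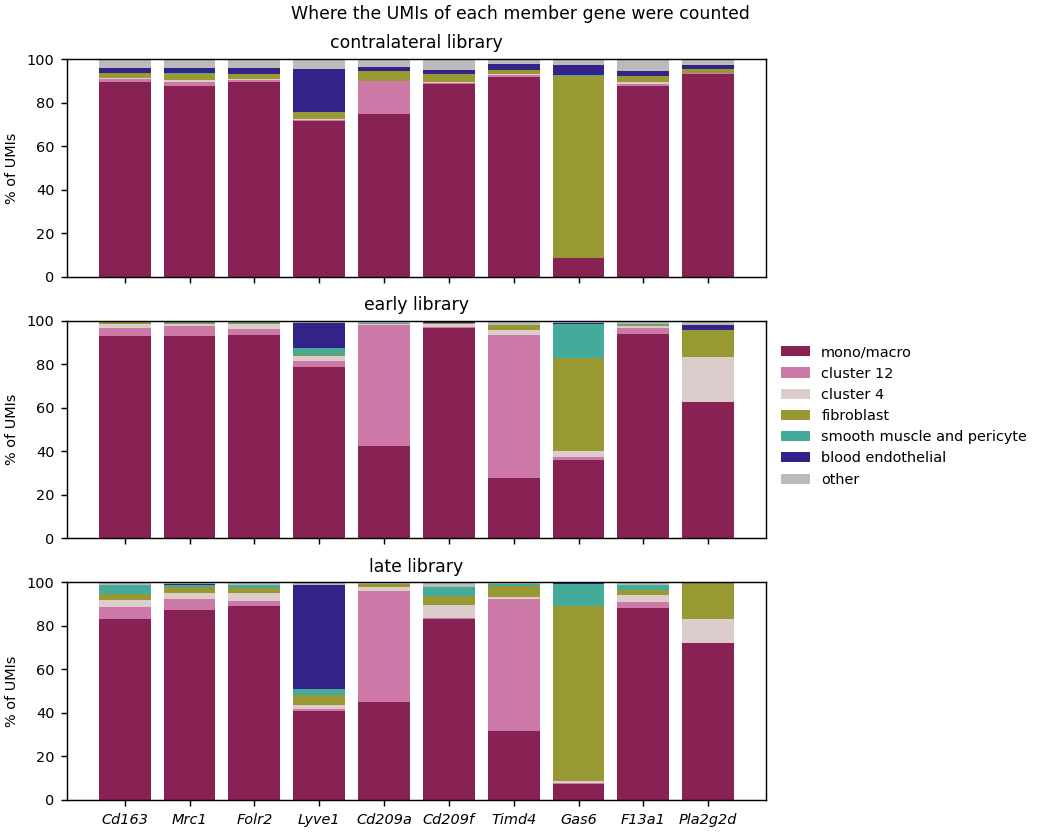
Share of each gene's UMIs (percent, stacked bars from 0) by cell class in the contralateral, early and late pools. Mono/macros hold most UMIs of 9 genes in the contralateral pool, fibroblasts hold most *Gas6* there (83.8%), the endothelial class takes 48.0% of late *Lyve1*, and cluster 12 takes over 50% of late *Cd209a* (50.9%) and *Timd4* (60.7%).

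In mono/macros, the other listed genes of resident macrophages were mostly lower in the AVF pools. Of 21, 18 had intervals below 1 against CL early and 18 late (median ratios 0.281 early and 0.269 late). Intervals lay above 1 for 3 genes early and 1 late. Over the genes that passed the minimum of 20 UMIs, 44.7% of intervals were below 1 early and 46.3% late. *Maf*, a transcription factor of resident macrophages, was at a ratio of 0.198 and 0.151, and the carbonyl reductase *Cbr2* at 0.209 and 0.179. *Siglec1*, which rose in bulk early AVFs, was at 0.258 and 0.170 within mono/macros. *Retnla* and *Mgl2* were at 0.0150 and 0.0126 early but 0.484 and 0.266 late. All 5 other CD209 genes were lower (median ratios 0.0364 and 0.0265), among them *Cd209d* at 395 CPM in CL, 7.08 early and 10.5 late. These ratios compare single pools and carry no test between conditions.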

How the data were processed

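The 25 bulk libraries were deposited as a table of raw read counts per Ensembl gene, and the 3 single-cell libraries as filtered matrices of UMI counts that Cell Ranger 6.0.2 wrote, per the file headers. The submitters' processing notes name STAR, Cell Ranger, mm10 and GRCm38, and which build served the bulk counts was not given in the sources used here. Genes were named from the single-cell gene lists (32210), then from GENCODE M21 (19962), and 4808 had no symbol. The members and gene lists were chosen with earlier results of these data known.

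Bulk counts of 12673 genes with a mean DESeq2-normalised count of at least 100 were scaled by TMM and fitted over all 4 groups with edgeR's quasi-likelihood test (edgeR 4.0.16, limma 3.58.1, R 4.3.3), adjusted by Benjamini-Hochberg over all genes tested. DESeq2 1.42.0 was an alternative. The common dispersion was 0.710. Log2 levels used a pseudocount of 1 CPM. Simulated data with the early against contralateral design recovered 17 of 100 genes changed by 1.5 and 45 of 100 changed by 3 on the log2 scale over 12673 genes, and late against early 10 and 35 of 100. The study's methods allot 25 mice to bulk sequencing, as many as there are libraries. The labels used here do not say whether a contralateral vein and an AVF came from the same mouse.

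Cells with 200 to 6000 genes and at most 10% mitochondrial UMIs were kept (16893 of 26438), and each library had a target of 10000 cells. Counts were scaled to 10000 per cell and clustered on 2000 variable genes without members, list or marker genes (12 components, 20 neighbours, Leiden resolution 0.5), with Python 3.11.15, numpy 2.4.6, scipy 1.17.1, pandas 2.3.3, scikit-learn 1.9.0, scanpy 1.11.5, igraph 0.11.9, leidenalg 0.10.2 and matplotlib 3.10.9. The libraries were clustered together, with no step to align them. Clusters were named from marker genes. Scrublet marked 0 of 6319, 2 of 4753 (0.0421%) and 120 of 5821 (2.06%) cells and had not worked in the contralateral library, so no doublets were removed. Summed UMI counts per class have exact Poisson intervals (95%).

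All 10 members were named, with at most 4 called genes per list and contrast in order of fold change, and the 8 genes most like the members' mean profile. The alternatives were other scaling, filters, tools, a sex term, females only, each library left out, other references, a mitochondrial limit of 20%, resolution 1 and thinning to 2000 UMIs.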

Additional observations from a re-analysis of the deposited data

Results flagged for a closer look

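In 5 of 40 sets of libraries tested (10 genes in 4 groups), a single library lay far from the others by Dixon's test, and chance marks about 1 in 20. *Timd4* in early AVF 7 was 44.01 CPM, against 1.59 CPM in the next of 8 libraries. *Pla2g2d* in the same vessel was 32.7 CPM, against 5.20 CPM in the next. *Timd4* in late AVF 23 was 7.61 CPM, against 1.84 CPM in the next of 5. *Cd209a* in contralateral vein 28 was 449.6 CPM, against 195 CPM in the next of 7. *Cd209a* in mid AVF 14 was 52.7 CPM, against 31.8 CPM in the next of 5.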

How the results depend on the processing

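Members called lower early numbered 4, and 1 (*Cd209f*) with females only. Members called lower in mid AVFs numbered 2, and 4 with DESeq2 (*Pla2g2d*, *Cd163*, *Cd209f*, *Cd209a*) but 1 (*Cd209f*) with a sex term or females only. Late calls numbered 1, with 2 by DESeq2 (*Pla2g2d*, *Cd209f*) and 0 with females only, where fewer samples were fitted. From early to mid DESeq2 called 1 (*Gas6*) where edgeR called 0, and the *Gas6* call from early to late (1) was lost with females only (0). With each library left out in turn, calls ranged from 3 to 5 early, 1 to 3 mid and 1 to 2 late, from 0 to 1 for mid against early, stayed at 1 for late against early and at 0 for late against mid. *Pla2g2d* was lost in mid AVFs without vein 28, where *Cd163* was called instead, and mid calls went to 1 (*Cd209f*) without vein 31, early AVF 1, 2 or 4, any mid AVF, or late AVF 17, 19 or 24. Without early AVF 6, *Cd209a* was also called mid and late (2 late), without early AVF 3 *Lyve1* was lost early, and without early AVF 7 *Pla2g2d* was called early. Without early AVF 1, 2, 4 or 10, *Gas6* was also called from early to mid. Leaving out vein 28 and early AVF 7 together, chosen after seeing the data, called *Pla2g2d* and *Timd4* early and no longer *Lyve1*, and gave 3 mid calls. The cause was not tested. The *Gas6* log2 fold change from early to late ran from 2.77 to 3.20 over 33 alternatives, with edgeR or DESeq2 adjusted p from 5.93e-08 to 0.151 and a call in 32, and from early to mid it ran from 1.76 to 2.35 with adjusted p from 0.000339 to 0.318.

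At a mitochondrial limit of 20%, the early over contralateral ratios in mono/macros were 0.0648 for *Cd163*, 0.0608 for *Lyve1*, 0.227 for *Folr2*, 0.0132 for *Timd4*, 0.275 for *Mrc1*, 0.215 for *F13a1*, 0.213 for *Gas6*, 0.00757 for *Pla2g2d*, 0.0512 for *Cd209f* and 0.0908 for *Cd209a*, and the late ratios were 0.0368 for *Timd4*, 0.306 for *Mrc1* and 0.179 for *Cd209a*. That class took in 360 of 362 cells of cluster 12 (99.4%) and 971 of 1144 of cluster 4 (84.9%). Thinned to 2000 UMIs, mono/macros carried 5.44, 1.38 and 1.51 members. No called value changed sign, but uncalled fold changes against contralateral veins did: with females alone *Timd4* early (0.53), *Folr2* late (0.25) and *Gas6* mid (0.40), without vein 633 or mid AVF 15 *Gas6* mid (0.01 and 0.02), without vein 31 *Cd163* early (0.02), and without vein 28 or 35 *Mrc1* mid and late (-0.12 to -0.002). In AVF mono/macros *Timd4* rested on 13 early and 37 late UMIs and *Pla2g2d* on 30 and 52. Counting intervals do not cover the spread between mice.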
